A study of Mus musculus with 6 samples.

Results

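Cholesterol synthesis and SREBP target genes were examined in C2C12 cells, a mouse myoblast line, after small interfering RNA (siRNA) against huntingtin (Htt). The gene set was a list of 34 symbols: sterol synthesis enzymes, their regulators, and lipid genes controlled by the sterol regulatory element binding proteins (SREBPs). Each gene was represented by its brightest probe set, a group of array probes summarised to 1 value, among those annotated with 1 gene symbol. By that rule 31 of the 34 genes were measured, of 22180 genes measured in all. Idi1 and Scd2 lay on probe sets annotated with several symbols, and no probe set was listed for Acat2, so these 3 genes are not described. Each of the 31 genes had 1 probe set, and all 31 averaged above 2.95, the median of the gene means on the log2 scale.

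The Htt siRNA group held 3 arrays of C2C12 cells transfected with an siRNA pool, and the scramble group held 3 arrays of the same line transfected with scramble siRNA. The treated samples carry the abbreviation KO in their labels, whereas the design text describes a knockdown by siRNA. Whether the replicates were separate cultures is not stated, so every p-value refers to the spread among these 6 arrays and part of that spread may be technical. The labels name neither the time after transfection nor the culture stage.

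Cells make cholesterol from acetyl-CoA through mevalonate, farnesyl diphosphate, squalene and lanosterol. SREBP2, encoded by Srebf2, drives the genes of this route when membrane sterol is low, and SREBP1, encoded by Srebf1, acts more on fatty acid synthesis and desaturation. When sterol is plentiful, INSIG proteins hold the SREBP precursor and its escort SCAP in the endoplasmic reticulum, and transcription of these genes falls. SREBPs bind sterol regulatory elements near the start of their targets, commonly with the CCAAT-binding factor NF-Y or with SP1 at GC boxes, and myoblasts need cholesterol for the membranes they build while dividing and fusing.

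Promoter windows of 25 of the 31 genes were found in RefSeq (build GRCm38.p6), each from 250 bases before to 50 bases after an annotated start. No window was found for Fdps, Fdft1, Sqle, Scd1, Fads1 and Stard4. The Insig1 window is shown because that gene spread most across the arrays, the Hmgcs1 window because it was the only 1 of the 25 genes with the sterol element searched for, and the Mvk window because it overlaps that of the neighbouring gene Mmab by 259 bases. Capitals mark CCAAT boxes (CCAAT, or ATTGG on the other strand), the sterol element TCACNCCAC and the E box CACGTG.
Insig1 (chr5:28071162-28071461, plus strand): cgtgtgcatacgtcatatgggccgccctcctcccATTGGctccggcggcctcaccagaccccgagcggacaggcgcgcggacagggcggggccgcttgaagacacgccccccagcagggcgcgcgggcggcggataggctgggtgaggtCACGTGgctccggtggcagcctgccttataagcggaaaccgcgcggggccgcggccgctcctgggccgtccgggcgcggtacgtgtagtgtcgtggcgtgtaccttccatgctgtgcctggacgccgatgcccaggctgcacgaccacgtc
Hmgcs1 (chr13:119690101-119690400, plus strand): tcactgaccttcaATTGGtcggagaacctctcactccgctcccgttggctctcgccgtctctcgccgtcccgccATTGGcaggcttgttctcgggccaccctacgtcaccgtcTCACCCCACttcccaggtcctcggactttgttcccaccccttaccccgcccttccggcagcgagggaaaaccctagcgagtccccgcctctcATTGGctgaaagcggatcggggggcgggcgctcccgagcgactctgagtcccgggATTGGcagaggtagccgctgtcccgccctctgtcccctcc
Mvk (chr5:114444019-114444318, plus strand): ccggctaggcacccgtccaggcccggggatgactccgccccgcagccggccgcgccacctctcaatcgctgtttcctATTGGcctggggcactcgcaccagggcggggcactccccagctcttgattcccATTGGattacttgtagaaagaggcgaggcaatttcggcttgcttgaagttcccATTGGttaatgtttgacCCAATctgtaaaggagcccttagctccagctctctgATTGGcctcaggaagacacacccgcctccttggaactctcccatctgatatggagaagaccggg
The Insig1 window held an E box and 1 CCAAT box, the Hmgcs1 window the sterol element and 4 CCAAT boxes, and the Mvk window 5 CCAAT boxes. Mmab runs the other way from Mvk, on the minus strand, with its window at chr5:114443978-114444277, so all 5 CCAAT boxes of the Mvk window are also those of the Mmab window.

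Motifs were searched on both strands of every window. A CCAAT box was found in 22 of the 25 genes (88.0%), against 41.1% of 27025 genes with a window and 42.8% of those with array means above the median. The GC box GGGCGG was found in 20 of the 25 (80.0%), against 38.2% of all genes and 69.8% of the brighter ones. For the E box the count was 5 of 25 (20.0%), against 8.09% of all genes and 12% of the brighter ones. The element TCACNCCAC was found in 1.44% of all genes, and its shorter form CACNCCAC, which it contains, in 2 of the 25 genes, Hmgcs1 and Insig1, against 7.12% of all genes. A match is only a description of the letters in the window. The lack of a match does not show that a gene lacks a sterol element, because only these exact letters and these windows were searched.

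**Figure D1:**
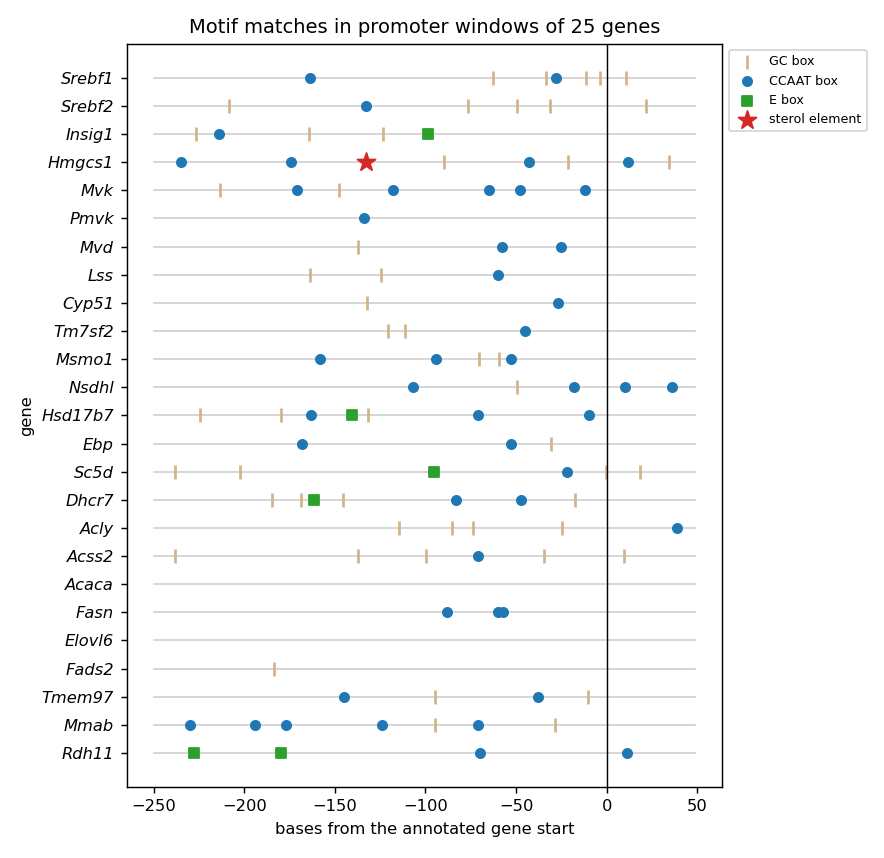
Motif matches in the promoter windows of 25 genes, with the distance from the annotated start in bases on the horizontal axis and 1 gene per row. Circles are CCAAT boxes, squares E boxes, vertical ticks GC boxes and the star the sterol element; genes with several windows show the matches of all of them. CCAAT boxes lie in 22 rows, and only Hmgcs1 carries the star.

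Htt itself, the target of the siRNA pool, stood at 4.49, 4.47 and 4.65 in Htt siRNA replicates 1, 2 and 3, against 5.59, 5.6 and 5.72 in scramble replicates 1, 2 and 3. The groups did not overlap, and the mean with Htt siRNA was 46.6% of that with scramble (log2 fold change -1.10 ± 0.09, limma adjusted p = 0.0559). Probe brightness differs between genes, so marker levels are only a rough check of the cell label. The 8 listed myoblast markers, among them Myod1, Des and Cdh15, had 6-array means of 4.31 to 10.20, all above the median gene mean. Marker lists of adipocytes, hepatocytes, macrophages and endothelial cells averaged between 2.28 and 3.09 in every array, near or below the median gene mean except in the case of single genes such as Pparg, which averaged 5.51 ± 0.13 with Htt siRNA and 5.93 ± 0.39 with scramble (SD, n = 3 each). Htt siRNA replicate 2 stood apart from replicates 1 and 3 in several lists, as given below. Correlations between pairs of arrays over probe sets lay between 0.981 and 0.991. Htt siRNA replicate 2 correlated at 0.985 and 0.984 with Htt siRNA replicates 1 and 3. With scramble replicates 1, 2 and 3 it correlated at 0.986, 0.988 and 0.990. Over all probe sets, Htt siRNA replicate 2 was thus closer to the scramble arrays than to its own group, so its standing apart was not particular to the lipid genes.

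Across the 31 lipid genes the 2 groups did not separate, because the Htt siRNA arrays disagreed with each other. Averaged over the 31 genes, the log2 values were 6.57, 7.17 and 6.6 in Htt siRNA replicates 1, 2 and 3, against 7.04, 6.93 and 7.14 in scramble replicates 1, 2 and 3. Htt siRNA replicates 1 and 3 were therefore the lowest arrays and Htt siRNA replicate 2 the highest. Htt itself read 4.49, 4.47 and 4.65 in Htt siRNA replicates 1, 2 and 3, and a link to this order was not tested. The group levels were 6.78 ± 0.34 with Htt siRNA and 7.03 ± 0.10 with scramble (SD, n = 3 each), a difference of -0.26 that was smaller than the spread within the Htt siRNA group. In these bulk RNA samples, fewer cells using a gene and less RNA of it per cell cannot be told apart.

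Of the 31 genes, 26 had a negative log2 fold change, where 41.8% of all genes and 52.5% of those above the median level did. The other 5, Srebf2, Mvd, Fdps, Ebp and Scd1, had positive values, as did 58.2% of all genes and 47.5% of the brighter ones. The median over the 31 genes was -0.26, against 0.03 over all genes and -0.01 over the brighter genes.

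Limma called 0 of the 31 genes lower and 0 higher at an adjusted p of 0.05, and it called 0% of all 22180 genes in either direction. At an unadjusted p of 0.05, 1 of the 31 genes was lower, Mmab, where the background was 5.14% of all genes and 9.22% of the brighter ones. None was higher at that level (0 of 31), against 5.72% of all genes and 5.92% of the brighter ones. Every Htt siRNA array lay below every scramble array for 3 genes, Tm7sf2, Acss2 and Mmab, as for 5.91% of all genes and 9.04% of the brighter ones. The reverse held for 1 gene, Ebp, and for 10.1% of all genes and 7.13% of the brighter ones. Insig1 and Stard4 were the 2 genes lower by 1.5-fold or more (1.77% of all genes, 3.42% of the brighter ones), and 0 were higher by that much (0.735% of all genes, 1.42% of the brighter ones).

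How large the difference came out depended on single arrays. Leaving out the first Htt siRNA replicate gave a median log2 fold change of -0.15 over the 31 genes, leaving out the second gave -0.40, and leaving out the third gave -0.16. With Htt siRNA replicate 2 left out, limma called 6 genes lower, against 1.91% of all genes and 3.78% of the brighter ones, and 0 higher, against 0.528% of all genes and 0.893% of the brighter ones. At an unadjusted p of 0.05, 23 of the 31 genes were then lower, against 7.75% of all genes, and 0 were higher, against 7.8%. The 6 called genes were Insig1 (-1.31 ± 0.15, adjusted p = 0.0103), Cyp51 (-0.88 ± 0.12, adjusted p = 0.0180), Nsdhl, Hsd17b7, Sc5d and Fasn. With all arrays kept, 1 gene was lower at an unadjusted limma p of 0.05, or 11 when arrays were weighted by their agreement. The share of all genes was not computed for the weighted fit. Leaving out each of the other 5 arrays gave 0 called genes among the 31.

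Values of many genes not called without Htt siRNA replicate 2 shifted the same way, but Mvd (0.19) and Ebp (0.05) kept their positive values. Arithmetic fixes the direction of most of these shifts, because replicate 2 was above replicates 1 and 3 in 28 of the 31 genes. Leaving it out lowers the Htt siRNA mean of those genes, so only the sizes are described here. The log2 fold change was then -1.01 for Stard4, -0.73 for Elovl6, -0.69 for Dhcr7, -0.68 for Hmgcs1, -0.63 for Fads2, -0.59 for Sqle and -0.54 for Lss, with limma adjusted p from 0.0604 for Dhcr7 to 0.157 for Elovl6. By role, the medians without that array were -0.43 for the regulators, -0.30 for the mevalonate genes, -0.54 from squalene to lanosterol and -0.65 after lanosterol. They were -0.34 for fatty acid synthesis, -0.32 for the desaturases and -0.40 for the remaining targets. Mmab, with -0.40, was at the same value with and without it.

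**Figure D2:**
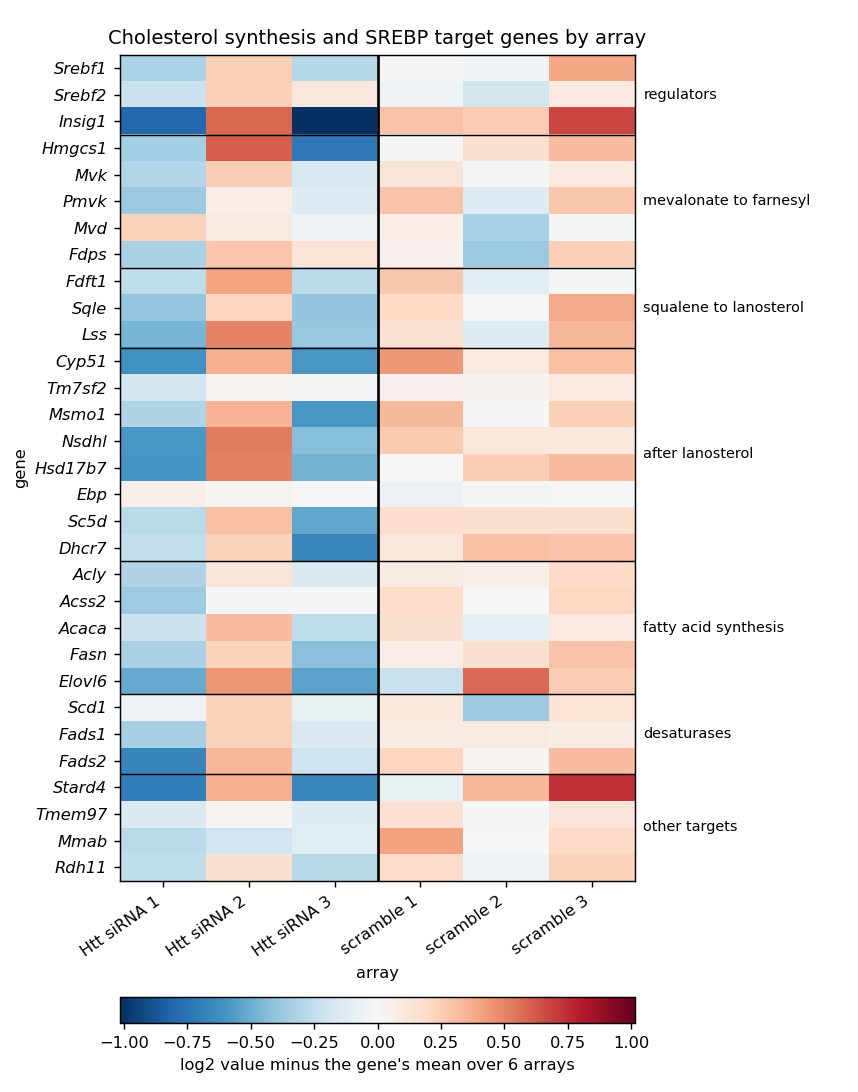
Log2 value of each of the 31 genes in each array minus that gene's mean over the 6 arrays (colour scale), with genes grouped by role in rows and arrays in columns, Htt siRNA left of the line and scramble right of it. The columns of Htt siRNA replicates 1 and 3 are mostly blue and that of replicate 2 mostly red; Ebp is near white throughout.

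The order of the arrays recurred from gene to gene. In 24 of the 31 genes, Htt siRNA replicates 1 and 3 were both below the other 4 arrays, an arrangement chosen for counting after the values were seen and found in 11.2% of all genes and 18.1% of the brighter ones. Htt siRNA replicate 2 was above replicates 1 and 3 in 28 of the 31, where 35.6% of all genes and 39% of the brighter ones were so ordered. It was above all 3 scramble arrays in 16, a count for which the share of all genes was not computed. The lowest value of a gene fell in Htt siRNA replicate 1 for 16 genes (15.2% of all genes) and in replicate 3 for 11 (16.7% of all genes). The highest fell in Htt siRNA replicate 2 for 14 genes (17.9% of all genes) and in scramble replicate 3 for 9 (13.4% of all genes). The 31 genes share arrays and are not independent of each other, so these counts describe 6 arrays and not 31 repeats.

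The spread within the groups was unequal as well. The SD was larger among Htt siRNA than among scramble arrays for 26 of the 31 genes (56.4% of all genes, 55.5% of the brighter ones). It was at least 2 times as large for 16, and the share of all genes for that was not computed. The median SD of the 31 genes was 0.32 with Htt siRNA and 0.16 with scramble, while over all genes it was 0.13 with Htt siRNA and 0.11 with scramble. Over the 6 arrays, 14 of the 31 genes were among the 10% of all genes with the largest SD.

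**Figure D3:**
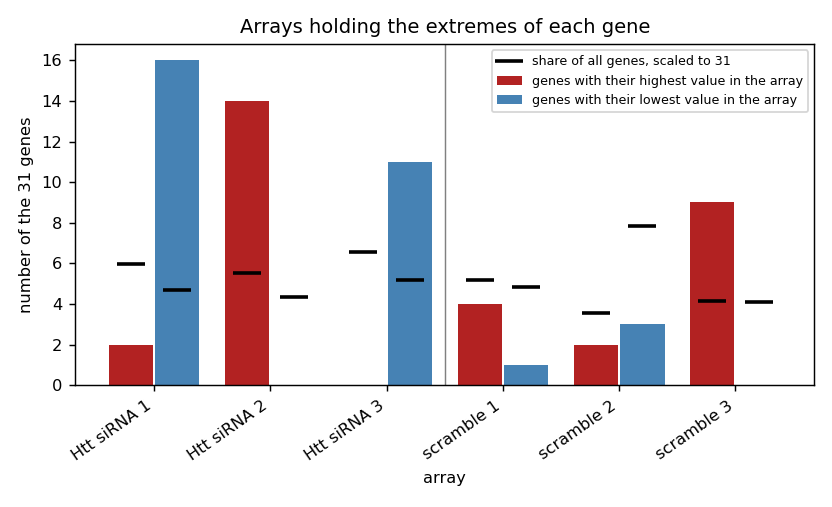
Number of the 31 genes (vertical axis) with their highest value (red bars) or lowest value (blue bars) in each array; black dashes mark the share of all 22180 genes scaled to 31 genes. Htt siRNA replicates 1 and 3 hold 16 and 11 of the lowest values, and Htt siRNA replicate 2 holds 14 of the highest and 0 of the lowest.

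Among the regulators, Insig1 moved furthest between arrays and the SREBP genes themselves less. Insig1, the sterol-sensing anchor that is also an SREBP target, stood at 7.22, 8.59 and 7.0 in Htt siRNA replicates 1, 2 and 3, against 8.30, 8.27 and 8.69 in scramble replicates 1, 2 and 3. Relative to the scramble mean these Htt siRNA levels were 43.5%, 113% and 37.3% on the linear scale. Replicates 1 and 3 lay below every scramble array and replicate 2 within their range, so the log2 fold change of -0.82 ± 0.38 was not called (limma adjusted p = 0.487). By its SD over the 6 arrays Insig1 had rank 177 among the 22180 genes.

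Srebf1 had values of 5.03, 5.59 and 5.06 in the Htt siRNA replicates, against 5.36, 5.32 and 5.74 in the scramble replicates, in replicate order. It thus followed the same array order over a narrower range (-0.25 ± 0.18, limma adjusted p = 0.656). Srebf2 did not follow it: the Htt siRNA arrays read 8.26, 8.72 and 8.58 and the scramble arrays 8.43, 8.29 and 8.58. Its groups overlapped (0.09 ± 0.14, limma adjusted p = 0.855), and the sign turned to -0.013 without Htt siRNA replicate 2.

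Of the 5 measured genes from HMG-CoA to farnesyl diphosphate, 3 had negative log2 fold changes and 0 were called, with a median of -0.14. Hmgcs1, the HMG-CoA synthase whose promoter carries the sterol element shown above, gave 8.38, 9.33 and 8.0 in Htt siRNA replicates 1, 2 and 3, against 8.70, 8.88 and 9.03 in the scramble replicates. Replicate 2 held its highest value and replicates 1 and 3 its lowest (-0.30 ± 0.30, limma adjusted p = 0.753), and the log2 fold change became -0.68 with Htt siRNA replicate 2 left out and -0.02 with replicate 3 left out. Pmvk, the phosphomevalonate kinase, gave 5.56, 6.0 and 5.80 with Htt siRNA, against 6.22, 5.80 and 6.21 with scramble (-0.29 ± 0.15, limma adjusted p = 0.539). Mvd, which decarboxylates mevalonate diphosphate, ran the other way, with 5.27, 5.13 and 4.99 in the Htt siRNA arrays and 5.10, 4.70 and 5.02 in the scramble arrays (0.19 ± 0.13, limma adjusted p = 0.636). The groups overlapped for all 5 genes. Fdps, the farnesyl diphosphate synthase, had a log2 fold change of 0.06 ± 0.20, and Mvk, the mevalonate kinase, of -0.14 ± 0.14.

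All 3 genes from farnesyl diphosphate to lanosterol had negative log2 fold changes, and 0 were called. Sqle, the squalene epoxidase and a flux-controlling step, read 7.80, 8.4 and 7.79 in Htt siRNA replicates 1, 2 and 3, against 8.39, 8.18 and 8.57 in the scramble replicates. Replicates 1 and 3 were close to each other, at 66.7% and 66.2% of the scramble mean and replicate 2 at 102% (-0.39 ± 0.18, limma adjusted p = 0.493). Lss, which cyclises squalene epoxide to lanosterol, read 5.96, 6.93 and 6.05 with Htt siRNA, against 6.59, 6.30 and 6.77 with scramble (-0.24 ± 0.26, limma adjusted p = 0.772). Fdft1, the squalene synthase, showed the same array order with a log2 fold change of -0.09 ± 0.20.

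The 8 enzymes after lanosterol had a median of -0.35, with 7 of the 8 negative and 0 called. Averaged over the 8 genes, the arrays read 6.02, 6.65 and 5.95 for Htt siRNA replicates 1, 2 and 3, against 6.53, 6.48 and 6.55 in scramble replicates 1, 2 and 3. The scramble arrays were close together, with an SD of 0.04, and the Htt siRNA arrays far apart, with an SD of 0.39. Their median was -0.23 without Htt siRNA replicate 1, -0.65 without replicate 2 and -0.18 without replicate 3. With replicate 2 left out, 4 of them, Cyp51, Nsdhl, Hsd17b7 and Sc5d, were called.

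Cyp51, the lanosterol demethylase, stood at 6.65, 7.63 and 6.67 in Htt siRNA replicates 1, 2 and 3, against 7.70, 7.37 and 7.57 in the scramble replicates. Replicates 1 and 3 were at 53.9% and 54.5% of the scramble mean and replicate 2 at 106% (-0.56 ± 0.25, limma adjusted p = 0.478). Dhcr7, the reductase of the final step to cholesterol, gave 5.49, 5.97 and 5.07 with Htt siRNA, against 5.84, 6.03 and 6.03 with scramble (-0.46 ± 0.21, limma adjusted p = 0.478). Hsd17b7, a ketoreductase in the removal of sterol methyl groups, gave 4.98, 6.10 and 5.11 with Htt siRNA, against 5.59, 5.83 and 5.90 with scramble (-0.38 ± 0.27, limma adjusted p = 0.655). In each of these genes replicates 1 and 3 were the lowest arrays.

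Nsdhl and Sc5d, singled out after their values were seen, showed the contrast between steady scramble arrays and scattered Htt siRNA arrays. Nsdhl, the dehydrogenase of the same demethylation complex, read 8.23, 9.35 and 8.4 with Htt siRNA, against 9.09, 8.94 and 8.94 with scramble. Sc5d, the lathosterol desaturase, read 6.47, 7.05 and 6.22 with Htt siRNA, against 6.92, 6.92 and 6.91 with scramble. Msmo1, the methyl sterol oxidase, had the same order with a log2 fold change of -0.37 ± 0.23. Ebp, the sterol isomerase, spanned 0.11 over the 6 arrays. Its lowest Htt siRNA array and its highest scramble array were equal to 2 decimals, at 6.07 (0.05 ± 0.08, limma adjusted p = 0.840). Tm7sf2, a sterol reductase, was lower in every Htt siRNA array than in every scramble array, by a log2 fold change of -0.12 ± 0.09 (limma adjusted p = 0.659).

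**Figure D4:**
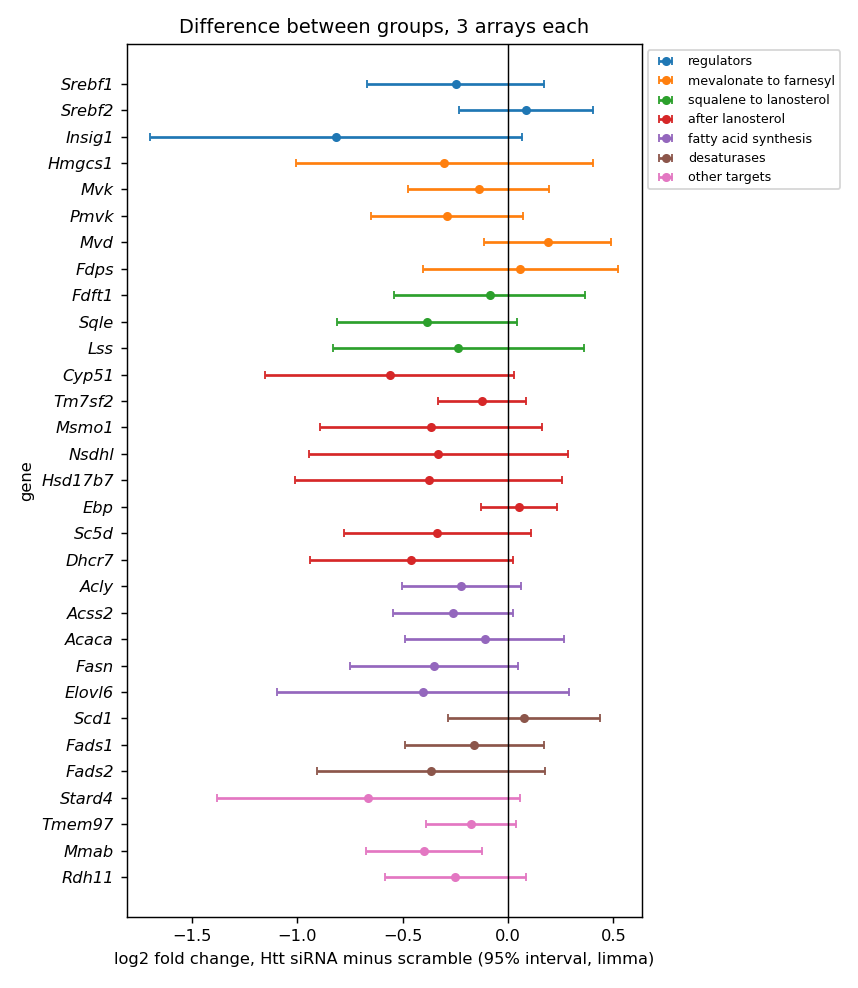
Log2 fold change of each of the 31 genes, Htt siRNA minus scramble (horizontal axis), with the 95% interval from limma (bars), coloured by role. Points lie left of 0 for 26 genes, and the interval excludes 0 for Mmab alone, before any adjustment for multiple tests.

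All 5 genes of fatty acid synthesis had negative log2 fold changes with a median of -0.26, and 0 were called. Fasn, the fatty acid synthase, stood at 7.58, 8.14 and 7.48 in Htt siRNA replicates 1, 2 and 3, against 7.98, 8.07 and 8.20 in the scramble replicates (-0.35 ± 0.17, limma adjusted p = 0.501). Acss2, which makes acetyl-CoA from acetate, gave 4.61, 4.96 and 4.95 with Htt siRNA, against 5.15, 4.96 and 5.18 with scramble. It was lower in all 3 Htt siRNA arrays, though Htt siRNA replicate 2 and scramble replicate 2 were equal to 2 decimals (-0.26 ± 0.12, limma adjusted p = 0.488). Elovl6, the elongase of long saturated chains, gave 7.43, 8.39 and 7.39 with Htt siRNA, against 7.71, 8.52 and 8.19 with scramble, so its scramble arrays were spread too (-0.40 ± 0.30, limma adjusted p = 0.660). Acly, which supplies cytosolic acetyl-CoA from citrate, and Acaca, the acetyl-CoA carboxylase, had log2 fold changes of -0.22 ± 0.12 and -0.11 ± 0.16.

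The 3 measured desaturases had a median of -0.16, with 2 negative and 0 called. Fads2, the first enzyme of polyunsaturated fatty acid synthesis, gave 8.09, 9.11 and 8.56 in Htt siRNA replicates 1, 2 and 3, against 8.98, 8.79 and 9.08 in the scramble replicates (-0.37 ± 0.23, limma adjusted p = 0.606). Fads1, the next desaturase of that route, gave 8.39, 8.96 and 8.58 with Htt siRNA, against 8.80, 8.81 and 8.79 with scramble (-0.16 ± 0.14, limma adjusted p = 0.718). Scd1, the stearoyl-CoA desaturase, shown because its order differed, an addition made after its values were seen, had 9.42, 9.68 and 9.38 with Htt siRNA and 9.57, 9.09 and 9.6 with scramble. Its low array was scramble replicate 2, and its log2 fold change was 0.08 ± 0.16 (limma adjusted p = 0.885).

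The 4 remaining SREBP targets were all lower on average, with a median of -0.32, and 0 were called. Stard4, which carries sterol between membranes, stood at 4.26, 5.31 and 4.29 in Htt siRNA replicates 1, 2 and 3, against 4.88, 5.28 and 5.68 in the scramble replicates. Replicates 1 and 3 were at 49.1% and 50.3% of the scramble mean (-0.66 ± 0.31, limma adjusted p = 0.487). Mmab, the mitochondrial cobalamin adenosyltransferase, differed in pattern: 5.18, 5.26 and 5.33 with Htt siRNA, against 5.86, 5.45 and 5.65 with scramble. All 3 Htt siRNA arrays, replicate 2 included, were below all 3 scramble arrays (-0.40 ± 0.12, unadjusted p = 0.0103 in limma, adjusted p = 0.366). Mmab had the smallest p of the 31 genes and the rank 621 among all genes.

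Mvk, chosen here as the head-to-head neighbour of Mmab that shares its promoter window, gave 4.43, 4.98 and 4.57 in Htt siRNA replicates 1, 2 and 3, against 4.86, 4.71 and 4.83 in the scramble replicates. Mvk followed the common array order, with replicate 2 highest, and Mmab did not; the difference between the neighbours was not tested. Tmem97, a sterol-responsive membrane protein, and Rdh11, a retinol dehydrogenase, had log2 fold changes of -0.18 ± 0.09 and -0.25 ± 0.14.

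All 7 role groups had a lower mean level with Htt siRNA than with scramble, and in each of them the arrays at the bottom were Htt siRNA replicates 1 and 3. The differences lay between -0.37 for the remaining SREBP targets and -0.10 for the mevalonate genes. Htt siRNA replicate 2 was the highest array for the mevalonate, squalene to lanosterol, after lanosterol, fatty acid and desaturase groups. For the regulators it lay just below scramble replicate 3 (7.64 against 7.67). For the remaining SREBP targets it read 6.03, below scramble replicates 1 and 3 at 6.11 and 6.27.

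Averaged together, other genes of sterol and lipid handling, outside the set, varied little between arrays, although single genes varied more. Of 51 listed in 5 lists, 45 were measured; 20 had negative and 25 positive log2 fold changes, limma called 0, and the median was 0.02. At an unadjusted limma p of 0.05, 1 was lower and 3 were higher, where 5.14% of all genes were lower and 5.72% higher. Averaged over the 45 genes, the arrays read 5.91, 5.85 and 5.86 for Htt siRNA replicates 1, 2 and 3, against 5.93, 5.77 and 5.83 in scramble replicates 1, 2 and 3, a span far narrower than that of the 31 genes. Htt siRNA replicates 1 and 3 were both below the other 4 arrays in 4 of the 45, Fntb, Lpcat3, Me1 and Scarb1 (11.2% of all genes). Replicate 2 was above replicates 1 and 3 in 15 of the 45 (35.6% of all genes). Among 9 genes of SREBP processing and sterol sensing, the smallest p belonged to Erlin2, a membrane protein of the INSIG degradation machinery (0.39 ± 0.13), and Faf2, an adaptor for endoplasmic reticulum degradation (-0.20 ± 0.08). Their limma adjusted p was 0.395 for Erlin2 and 0.432 for Faf2.

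Another 3 lists were set beside the 31 genes because they differ strongly between the arrays. The mean of 29 unfolded protein and integrated stress response genes was 8.11, 6.42 and 8.13 in Htt siRNA replicates 1, 2 and 3, against 8.20, 6.67 and 7.0 in scramble replicates 1, 2 and 3. Htt siRNA replicate 2, highest for the lipid genes, was lowest for stress genes. The highest stress gene mean was in scramble replicate 1, where the lipid genes averaged 7.04. The mean of 19 S phase genes was 5.52, 6.85 and 5.79 with Htt siRNA, against 6.68, 7.29 and 7.08 with scramble, so the lowest arrays were again Htt siRNA replicates 1 and 3. For 17 sarcomere genes it was 5.15, 4.42 and 4.95 with Htt siRNA, against 3.96, 3.63 and 4.09 with scramble, and here all 3 Htt siRNA arrays were higher. Without Htt siRNA replicate 2 the group difference was 0.83 for the stress genes (0.26 with it), -1.36 for the S phase genes (-0.96 with it) and 1.16 for the sarcomere genes (0.95 with it). The part of stress, proliferation and differentiation state in the lipid gene levels was not tested.

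**Figure D5:**
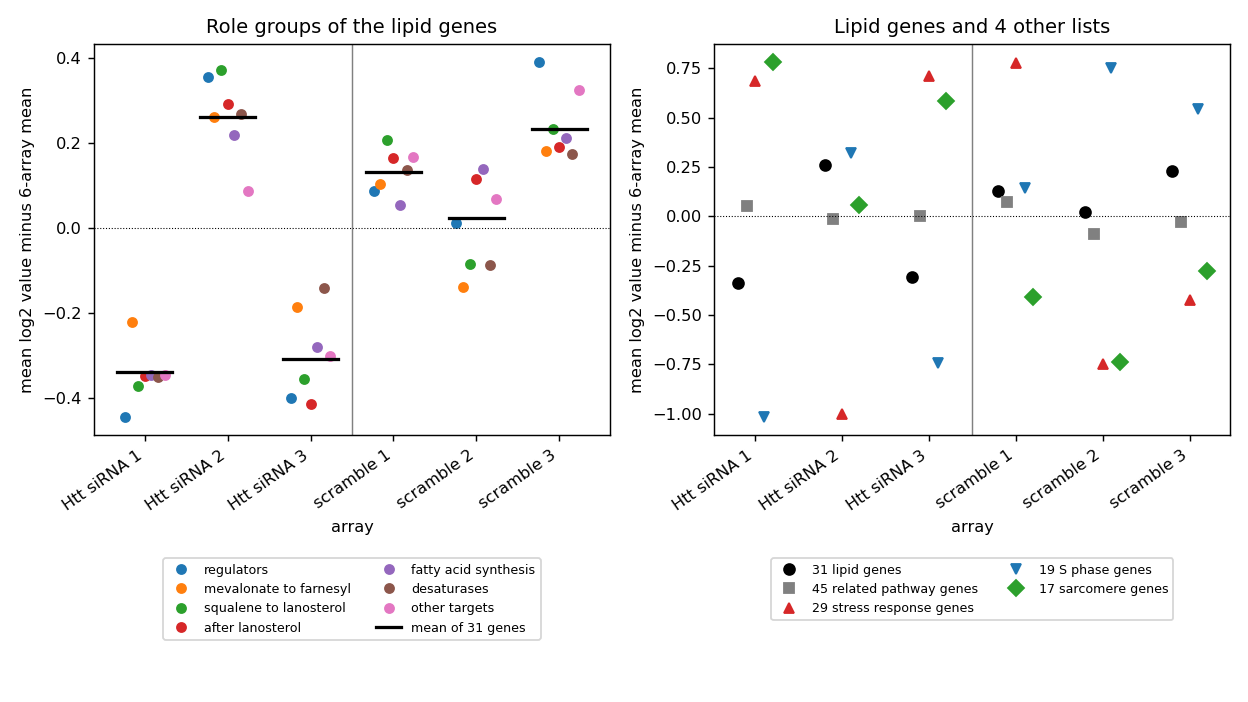
Mean log2 level of gene lists in each array minus the mean over the 6 arrays (vertical axis). Left, the 7 role groups (coloured points) and all 31 genes (black bars); right, the 31 lipid genes beside 45 related pathway genes, 29 stress response genes, 19 S phase genes and 17 sarcomere genes. The lipid genes lie at -0.34 and -0.31 in Htt siRNA replicates 1 and 3 and at 0.26 in replicate 2, and the related pathway genes stay near 0.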

How the data were processed

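Total RNA of C2C12 cells was hybridised to Affymetrix arrays, 3 per group. The values deposited by the authors are on the log2 scale, 41345 probe sets by 6 arrays, made with RMA and the affy package per the submitters' processing notes, without versions. RMA includes quantile normalization, which removes changes in total RNA, and it compresses weak signals. The number of arrays limits the precision. The genome build of the array is not given in the sources used here.

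Platform annotation named 25335 probe sets, 23521 of them with 1 symbol and 1814 with several; 23328 matched RefSeq by Entrez identifier. The brightest probe set stood for each of 22180 genes. Probe brightness differs between genes, so levels were set against the median gene mean only as a rough mark of detection.

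Groups were compared with limma 3.58.1 (lmFit and eBayes, R 4.3.3), two-sided, with Benjamini-Hochberg adjustment over all genes and a threshold of 0.05; the fit was tested on simulated data. Values after ± are SDs for levels and moderated standard errors for log2 fold changes. The members and gene lists were chosen with earlier results of these data known, so no p-value is given for the set.

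Values in every array are given for Htt, the 3 regulators, the 2 genes with the smallest p in each other role group and the 6 with the largest SD; further genes are marked as chosen later. The 13 alternatives left out each array, added a replicate block, filtered dim genes, centred or quantile-normalized the arrays again, weighted arrays, averaged probe sets or fitted a variance trend. Figures were drawn with matplotlib 3.10.9 in Python 3.11.15.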

Additional observations from a re-analysis of the deposited data

How the results depend on the processing

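Without Htt siRNA replicate 2, limma called 6 of the 31 lipid genes lower, and leaving out each other array called 0, so the count ranged from 0 to 6; the number called higher was 0 throughout. Over all genes the leave-one-out counts ranged from 0 to 423 lower and from 0 to 117 higher, with 1 lower gene without scramble replicate 1. Whether equal replicate numbers mark paired samples is not stated. Same-numbered arrays had deviations from their group means correlated at 0.35, 0.36 and 0.01. Htt siRNA replicates 1 and 2 correlated best with the same-numbered scramble array, and Htt siRNA replicate 3 with scramble replicate 1. Correlations among so few arrays cannot settle the pairing. With the replicate block limma called 57 genes lower and 41 higher over all genes but 0 of the 31, and the median stayed at -0.26. In that fit 5 of the 31 (Mmab, Elovl6, Stard4, Dhcr7 and Insig1) had an unadjusted limma p under 0.05. The count was 1 without the block and 11 with array weights. For the block and the array weights the share of all genes at that level was not computed, so these counts have no background. Among genes above the median level, with arrays centred on their medians and with repeated quantile normalization it called 2 lower and 1 higher each, with array weights 1 lower and with the variance trend 1 lower and 1 higher.

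The log2 fold change of Htt was -1.10 with the replicate block, -1.10 above the median level and -1.13 after centring. It was -1.04 after repeated quantile normalization and -1.11 with array weights, and all of these passed the threshold. With averaged probe sets and with the variance trend it was -1.10 and missed the threshold (limma adjusted p = 0.0521 and 0.0615). Leaving out arrays gave -1.16 to -1.06, past the threshold only without Htt siRNA replicate 2 (limma adjusted p = 0.00778, against 0.348 without Htt siRNA replicate 1). For Srebf2 leaving out arrays gave -0.013 (without Htt siRNA replicate 2, where the sign turned) to 0.22 (without Htt siRNA replicate 1). The causes were not tested. The median over the 31 genes lay between -0.40 and -0.15 under all 13 alternatives, and 25 to 29 of the 31 were negative. The difference of the group means over the 31 genes ranged from -0.45 to -0.15 when arrays were left out; it was not computed with the block, the array weights, the variance trend or the level filter.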

Other observations

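Genes on other branches of sterol metabolism were measured as well. Of 5 genes of the LXR receptors and sterol efflux, 0 were called by limma; Nr1h3, which encodes a sterol-sensing nuclear receptor, had a log2 fold change of 0.10 ± 0.09, and Abca1, the cholesterol exporter, of -0.10 ± 0.11. Both probe sets averaged below 2.95, the median gene mean, in both groups, so these values are near the floor of the arrays. Of 10 genes of the isoprenoid branch, which uses farnesyl diphosphate for prenyl chains and protein prenylation, 0 were called, and the smallest p belonged to Pdss2 (-0.26 ± 0.12) and Fntb (-0.20 ± 0.09). Of 9 genes of sterol uptake and traffic, 0 were called, with Osbpl2, an oxysterol-binding protein relative, at 0.39 ± 0.18 and Scarb1, the lipoprotein receptor, at -0.30 ± 0.16. Of 12 other lipid synthesis genes, 0 were called; Gpam, the mitochondrial acyltransferase of glycerolipid synthesis, was higher in all 3 Htt siRNA arrays at 0.40 ± 0.13 (limma adjusted p = 0.395).

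Of 7 measured adipocyte markers, Pparg stood at 5.61, 5.36 and 5.55 in Htt siRNA replicates 1, 2 and 3, against 6.35, 5.88 and 5.58 in scramble replicates 1, 2 and 3. Cidec, a lipid droplet protein, ran the other way, with 2.87, 2.90 and 3.25 in the Htt siRNA replicates, against 2.59, 2.45 and 2.42 in the scramble replicates (0.52 ± 0.12, limma adjusted p = 0.299). Cidec was above 2.95, the median gene mean, only in Htt siRNA replicate 3, so its values are near the floor of the arrays. Adipoq, Plin1 and Lep stayed below 2.95 in every array, and Retn and Fabp4 passed it in some arrays.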
